A study of Rattus norvegicus with 15 samples.

Results

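Serine synthesis genes and targets of the stress transcription factor ATF4 were measured in rat striatum with Affymetrix Rat Gene 2.0 ST arrays. The 10 genes listed for this set are Psat1, Phgdh, Psph, Shmt2, Atf4, Ddit3, Asns, Trib3, Chac1 and Sesn2, and a gene was taken from the transcript whose only symbol was its own. Of the 36685 transcripts on the array, 9 were such members, 1 for each gene except Sesn2, which is not analysed here. The set was chosen by pathway around Psat1, which had itself been selected on its measured difference between LID + PD98059 and LID + Vehicle in these arrays. The members' differences in that comparison are therefore given as a description with no p, and the counts of members past a threshold there are printed only beside those of all transcripts, with nothing read from them.

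All rats were male Sprague-Dawley rats, and each of the 5 groups had 3 rats with 1 array per rat. In LID + PD98059, rats with a 6-OHDA lesion of the right medial forebrain bundle, a toxin injection that removes dopamine neurons, received L-DOPA with benserazide daily for 3 weeks. PD98059, an inhibitor of the kinase MEK, was infused into their right lateral ventricle through a cannula, daily for 12 days from day 10 of L-DOPA. LID + Vehicle rats had the same lesion, L-DOPA and cannula but were infused with vehicle. LID rats had the lesion and L-DOPA with no infusion, PD rats had the lesion and no L-DOPA, and Normal rats were sham operated. The paper names cannula implantation only for the infused groups, so in comparisons with LID the cannula and the infusion cannot be told apart. All rats given L-DOPA had been selected for full dyskinesia before they were divided into groups, so rats that did not become dyskinetic are not represented. The tissue was whole striatum of the lesioned or sham-operated side, where fewer cells of a type and less RNA per cell cannot be told apart.

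Serine is made in the cytosol from an intermediate of glycolysis by PHGDH, PSAT1 and PSPH in turn, and in the brain these enzymes are known mainly from astrocytes and neural precursors. ATF4 is translated when kinases phosphorylate the initiation factor eIF2, a step called the integrated stress response that follows amino acid shortage or unfolded protein in the endoplasmic reticulum. ATF4 then binds genes of amino acid synthesis and uptake and, in longer stress, acts with CHOP, the product of Ddit3. Much of the control of ATF4 lies in translation, which an array of RNA does not measure.

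ATF4 is known to bind C/EBP-ATF response elements, and the motif TGATGNAA was searched on both strands of RefSeq promoters (GRCr8, 300 bases from 250 before to 50 after an annotated start). It stood in 3.98% of 33469 promoters and in those of 2 of the 10 genes, Chac1 and Trib3. The shorter motif GATGNAA, which lies within the first and so counts the same places again, stood in 12.1% of promoters and in those of 3 of the 10, with Psat1 added. The 250 bases before the start are shown for Psat1, which held only the shorter motif, and Chac1, which held the longer one. In LID + PD98059 against LID + Vehicle the log2 difference was 0.56 for Psat1, -0.38 for Chac1 and 0.06 for Trib3. The sequences run 5′ to 3′ on the gene's strand, and capitals mark the match, which in both genes reads on the opposite strand.
Psat1, GRCr8 chr1:222645409-222645658, minus strand: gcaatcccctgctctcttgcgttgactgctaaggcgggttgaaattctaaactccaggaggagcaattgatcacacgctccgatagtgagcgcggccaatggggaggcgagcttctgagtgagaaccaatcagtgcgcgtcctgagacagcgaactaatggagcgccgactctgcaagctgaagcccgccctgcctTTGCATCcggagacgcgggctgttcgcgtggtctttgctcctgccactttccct
Chac1, GRCr8 chr3:126795881-126796130, plus strand: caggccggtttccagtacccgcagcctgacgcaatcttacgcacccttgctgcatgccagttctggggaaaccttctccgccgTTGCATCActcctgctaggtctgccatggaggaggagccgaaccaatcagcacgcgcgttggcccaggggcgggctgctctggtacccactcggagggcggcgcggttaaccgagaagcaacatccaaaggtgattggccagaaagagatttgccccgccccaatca
The match began 54 bases before the start of Psat1 and 167 bases before that of Chac1, and both shared the letters TTGCATC. The start of Psat1 in the table lies inside the annotated span of the gene, not at its outer end. Trib3 had its match 21 bases before the start, and no match says only that these letters are not in the window.

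Values are the log2 signals the authors deposited. A level of 5.85, the 95th percentile of 70 olfactory receptor transcripts, was used as the dim level. Groups were compared with limma in 1 fit over the 15 arrays. The adjusted threshold was an adjusted p under 0.05 together with a fold of 1.2 or more either way, and the unadjusted threshold used the raw p of the same fit with that fold. Arrays correlated with each other at r from 0.966 to 0.987, and their medians lay between 5.56 and 5.65. By their means over the 15 arrays, all 9 striatal projection neuron markers measured were above the dim level, and 4 of 6 choroid plexus markers were under it. LID + Vehicle replicate 1 stood apart among the members: it held the highest value of the 15 arrays for 5 of 9 members and the lowest for 1. It also had the lowest mean of the projection neuron markers, 9.70, against 9.80 to 10.66 in the other arrays, and the highest mean of 10 reactive astrocyte markers, 9.76, against 5.99 to 9.14. Its part in the results was not tested beyond leaving it out.

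**Figure D1:**
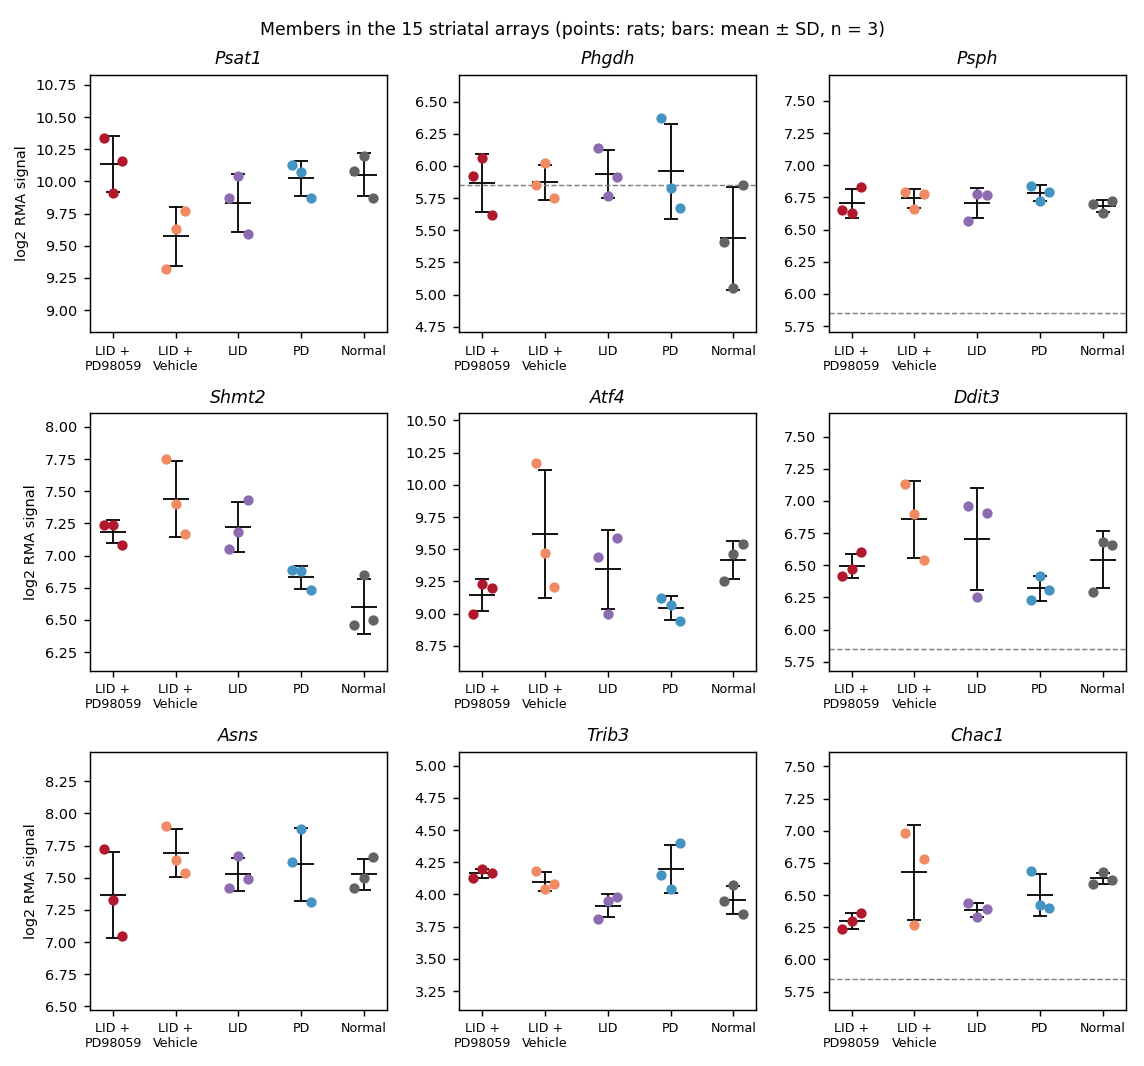
The log2 RMA signal of the 9 members with a transcript (y axis, each panel spanning the same range of 2 log2 units) in the 5 groups (x axis), with a point per rat and the mean ± SD of 3 rats, and a dashed line at the dim level of 5.85 where the panel reaches it. Shmt2 was higher in every array of the 3 groups given L-DOPA than in every PD and Normal array, while Psph was nearly level.

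Psat1, the transaminase of the middle step of serine synthesis, was the brightest member. Its signal was 10.34, 9.91 and 10.16 in LID + PD98059, and 9.32, 9.63 and 9.77 in LID + Vehicle. It was 9.87, 10.04 and 9.59 in LID, 10.13, 10.07 and 9.87 in PD, and 10.08, 10.20 and 9.87 in Normal. The 3 LID + PD98059 arrays all lay above the 3 LID + Vehicle arrays, and the PD and Normal arrays lay within or just under the range of LID + PD98059. The difference of LID + PD98059 from LID + Vehicle was 0.56 on the log2 scale (SE 0.16, 95% interval 0.22 to 0.91), a fold of 1.48, and between 0.44 and 0.68 when any 1 of the 6 arrays was left out. Psat1 was selected on this difference, so its interval and this range are a description and no support for a change. Against LID, which had no infusion, LID + PD98059 was 0.31 higher (SE 0.16, 95% interval -0.04 to 0.65), which did not pass (limma, adjusted p = 0.929). LID + Vehicle differed from LID by -0.26 (SE 0.16, limma, adjusted p = 1), and LID from PD by -0.19 (SE 0.16, adjusted p = 0.725). PD and Normal had means of 10.02 ± 0.14 and 10.05 ± 0.17 (SD, n = 3 each).

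Astrocytes are the main striatal cells known to hold Psat1. The mean of 11 astrocyte markers was 9.90, 9.75 and 9.98 in LID + PD98059, and 9.45, 9.92 and 9.89 in LID + Vehicle. The low LID + Vehicle array, replicate 1, was the lowest of the 15 for Psat1. The other 2 LID + Vehicle arrays had astrocyte marker means within the range of LID + PD98059, and their Psat1 signals were 9.63 and 9.77. The marker mean was 9.73, 9.81 and 9.79 in LID, 9.74, 9.70 and 9.70 in PD, and 9.44, 9.64 and 9.56 in Normal. Normal replicate 1, the lowest of the 15 for these markers, had a Psat1 signal of 10.08. The part of astrocyte content in the Psat1 difference was not tested. Of the 11 astrocyte markers, 1 was under the dim level by its mean over the 15 arrays.

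Phgdh, the first enzyme of the pathway, gave a dim signal. It was 5.92, 6.06 and 5.62 in LID + PD98059, 5.85, 6.02 and 5.75 in LID + Vehicle, and 6.14, 5.77 and 5.91 in LID. In PD it was 6.37, 5.83 and 5.67, and in Normal 5.41, 5.05 and 5.85. PD was 0.52 higher than Normal (SE 0.21, 95% interval 0.06 to 0.99, fold 1.43), which passed at the unadjusted threshold only (limma, adjusted p = 1). The PD and Normal arrays overlapped, and PD replicate 1 alone lay clearly above the dim level. Without that array the difference was 0.31, and without Normal replicate 2 it was 0.33, neither past the unadjusted threshold. Before rounding, the signal lay under the dim level in 7 of the 15 arrays.

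Psph, the phosphatase of the last step, lay between 6.57 and 6.84 in all 15 arrays. Its group means were 6.71 ± 0.11 in LID + PD98059, 6.75 ± 0.07 in LID + Vehicle, 6.71 ± 0.12 in LID, 6.78 ± 0.06 in PD and 6.68 ± 0.05 in Normal (SD, n = 3 each). The 95% interval of the difference between LID + PD98059 and LID + Vehicle ran from -0.24 to 0.16, so a change of the size seen for Psat1 lay outside it. Across the 5 groups Psph had a limma F of 0.36 (adjusted p = 0.947).

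Shmt2, the mitochondrial enzyme that splits serine into glycine and a one-carbon unit, varied most clearly between groups. Its signal was 7.24, 7.24 and 7.08 in LID + PD98059, 7.75, 7.40 and 7.17 in LID + Vehicle, and 7.05, 7.18 and 7.43 in LID. In PD it was 6.89, 6.88 and 6.73, and in Normal 6.46, 6.85 and 6.50. The 9 arrays of rats given L-DOPA ran from 7.05 to 7.75 with a median of 7.24, and the 6 of PD and Normal from 6.46 to 6.89 with a median of 6.79, with no overlap. Over the 5 groups the limma F was 9.38 (adjusted p = 0.128), below the threshold only before adjustment.

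LID was 0.39 higher than PD in Shmt2 (SE 0.15, 95% interval 0.05 to 0.72, fold 1.31), past the unadjusted threshold only (limma, adjusted p = 0.517, exact permutation p = 0.1, the smallest possible). It did not pass without LID replicate 3 (0.28) or PD replicate 3 (0.34). A comparison chosen after these values were seen set the mean of the 3 groups given L-DOPA against the mean of PD and Normal. There Shmt2 rose by 0.57 (SE 0.10, 95% interval 0.35 to 0.78) with an adjusted p of 0.0147 over all transcripts by limma. Since the separation of these arrays prompted the comparison, this p restates that observation and is no independent support. That comparison mixes the lesion with L-DOPA, since Normal rats had no lesion, and the share of all transcripts it called was 1.78% at the adjusted threshold, 11.4% at the unadjusted threshold and 1.21% by lack of overlap. Shmt2 was the 1 of 9 members at these thresholds. It stayed past the adjusted threshold in all the alternatives run, with an adjusted p from 0.00678 with dim transcripts left out to 0.04996 without Normal replicate 3. These limma refits used the same arrays, so they add no independent support either.

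Within the groups given L-DOPA, Shmt2 differed little. LID + PD98059 stood 0.25 under LID + Vehicle (SE 0.15, 95% interval -0.59 to 0.08) and 0.03 under LID (log2 difference -0.03, 95% interval -0.36 to 0.30). LID + Vehicle was 0.22 higher than LID (SE 0.15, adjusted p = 1, limma). PD was 0.23 higher than Normal (SE 0.15, adjusted p = 1).

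Markers of other cell types are given beside Shmt2. The mean of 10 reactive astrocyte markers was 6.90 to 9.14 in LID + PD98059, 7.09 to 9.76 in LID + Vehicle, 6.60 to 8.21 in LID, 6.23 to 6.42 in PD and 5.99 to 6.75 in Normal, and none of the 10 was under the dim level in any group. The 12 microglia markers averaged 8.12 to 9.35 in LID + PD98059, 8.48 to 9.43 in LID + Vehicle, 7.44 to 9.32 in LID, 7.48 to 8.19 in PD and 7.22 to 8.73 in Normal. Within LID, replicate 1 had the highest microglia mean, 9.32, and the lowest Shmt2 signal, 7.05. In LID + Vehicle, PD and Normal the array with the highest microglia mean also had the highest Shmt2 signal of its group. These were 9.43 and 7.75 in LID + Vehicle, 8.19 and 6.89 in PD, and 8.73 and 6.85 in Normal. In LID + PD98059, replicate 2 had the highest microglia mean, 9.35, and a Shmt2 signal of 7.24. The array with the highest reactive astrocyte mean also had the highest Shmt2 signal in LID, LID + Vehicle and Normal. These were 8.21 and 7.43 in LID, 9.76 and 7.75 in LID + Vehicle, and 6.75 and 6.85 in Normal. For LID + PD98059 that array was replicate 2, with 9.14 and 7.24. For PD it was replicate 2, with 6.42 and 6.88, and PD replicate 1 had a Shmt2 signal of 6.89. Oligodendrocyte markers averaged 10.07 to 10.51 in LID and 10.35 to 10.49 in PD. Markers of cortical excitatory neurons, of which 2 of 7 were under the dim level, had means of 6.00 to 7.01 in LID + PD98059, 6.16 to 6.91 in LID + Vehicle, 6.17 to 7.20 in LID, 6.94 to 7.48 in PD and 7.62 to 8.08 in Normal. The part of these cell types in the Shmt2 result was not tested.

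Atf4 itself gave 9.00, 9.23 and 9.20 in LID + PD98059 and 10.17, 9.47 and 9.21 in LID + Vehicle. It gave 9.44, 9.00 and 9.59 in LID, 9.12, 9.07 and 8.94 in PD, and 9.25, 9.46 and 9.54 in Normal. LID + Vehicle replicate 1 was far above the other arrays, and the remaining 2 LID + Vehicle arrays lay within the range of the other 4 groups. LID + PD98059 was lower than LID + Vehicle by a log2 difference of -0.47 (SE 0.21, 95% interval -0.93 to -0.02), and by -0.20 without LID + Vehicle replicate 1. The PD arrays all lay under the Normal arrays, with a log2 difference of -0.37 (SE 0.21, 95% interval -0.83 to 0.08), which did not pass in the fit over the 15 arrays (limma, adjusted p = 1). LID was 0.30 higher than PD (SE 0.21, adjusted p = 0.674, limma).

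Ddit3, which encodes CHOP, a transcription factor of prolonged stress, gave 6.42, 6.47 and 6.60 in LID + PD98059 and 7.13, 6.90 and 6.54 in LID + Vehicle. In LID it gave 6.96, 6.25 and 6.91, with replicate 2 far under the other two. PD had 6.23, 6.42 and 6.31, and Normal 6.29, 6.68 and 6.66. LID + PD98059 differed from LID + Vehicle by -0.36 (SE 0.19, 95% interval -0.77 to 0.06), and by -0.22 without LID + Vehicle replicate 1. LID was 0.38 higher than PD (SE 0.19, 95% interval -0.03 to 0.80), which did not pass (limma, adjusted p = 0.57). Without LID replicate 2 that difference was 0.61 and passed the unadjusted threshold.

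Among the ATF4 effectors, Chac1, which encodes an enzyme that degrades glutathione, gave 6.24, 6.30 and 6.36 in LID + PD98059 and 6.98, 6.27 and 6.78 in LID + Vehicle. It gave 6.44, 6.33 and 6.39 in LID, 6.69, 6.42 and 6.40 in PD, and 6.59, 6.68 and 6.62 in Normal. LID + PD98059 had the lowest mean of the 5 groups, and 2 of the 3 LID + Vehicle arrays were above all others. The log2 difference of LID + PD98059 from LID + Vehicle was -0.38 (SE 0.15, 95% interval -0.70 to -0.05), and -0.22 without LID + Vehicle replicate 1. LID + Vehicle was 0.29 higher than LID (SE 0.15, 95% interval -0.03 to 0.62, limma, adjusted p = 1). Without LID + Vehicle replicate 2 it was 0.50 higher, past the unadjusted threshold, and without LID + Vehicle replicate 1 it was 0.14 higher.

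Asns, asparagine synthetase, gave 7.72, 7.33 and 7.05 in LID + PD98059, 7.90, 7.64 and 7.54 in LID + Vehicle, 7.42, 7.67 and 7.49 in LID, 7.62, 7.88 and 7.31 in PD, and 7.42, 7.50 and 7.66 in Normal. The groups overlapped in every comparison. LID + PD98059 spread the widest and had the lowest mean, with a log2 difference of -0.33 from LID + Vehicle (SE 0.18, 95% interval -0.71 to 0.06). That difference was -0.50 without LID + PD98059 replicate 1 and -0.17 without LID + PD98059 replicate 3. Over the 5 groups Asns had a limma F of 0.931 (adjusted p = 0.817).

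Trib3, a pseudokinase that acts as a feedback inhibitor in ATF4 signalling, lay between 3.81 and 4.40, under the dim level in all 15 arrays. LID gave 3.81, 3.95 and 3.98, PD gave 4.15, 4.04 and 4.40, and Normal gave 3.95, 4.07 and 3.85. The LID arrays did not overlap those of PD, with a log2 difference of -0.28 (SE 0.10, 95% interval -0.51 to -0.06) at the unadjusted threshold only (limma, adjusted p = 0.497). LID + PD98059 gave 4.13, 4.20 and 4.17, and LID + Vehicle 4.18, 4.04 and 4.08, both without overlap with LID. Differences this far under the dim level have no clear reading as transcript amounts.

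**Figure D2:**
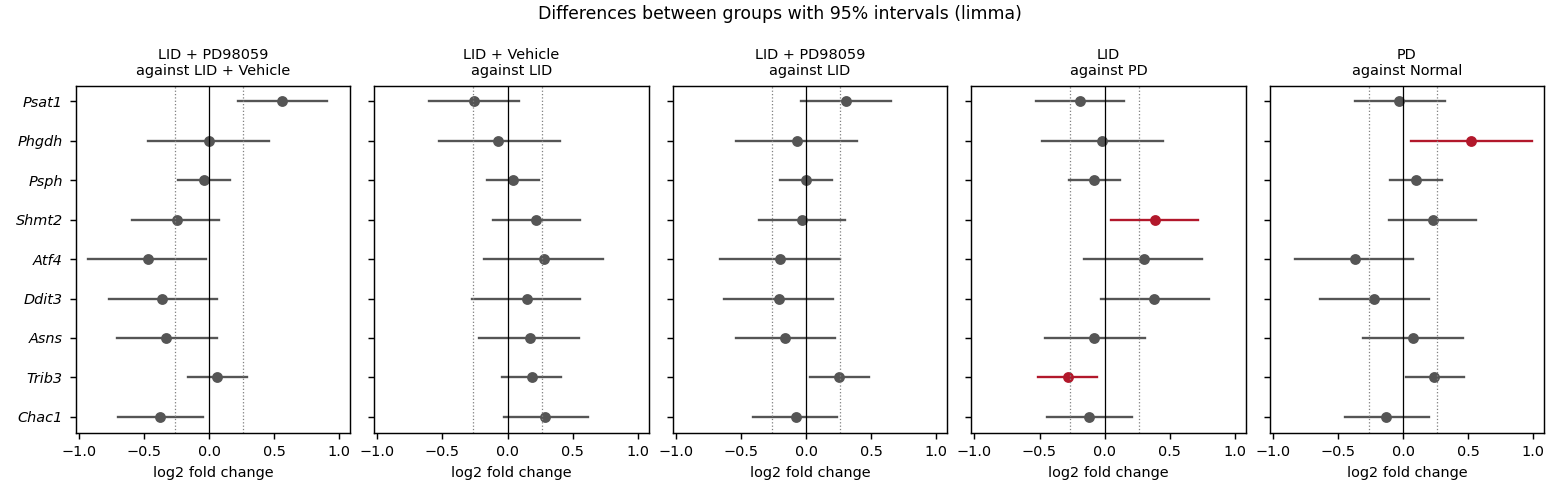
Log2 fold changes of the 9 members (y axis) in the 5 comparisons, with 95% intervals from limma and dotted lines at a fold of 1.2 either way. Red marks members past the unadjusted threshold and fold, which were Shmt2 and Trib3 in LID against PD and Phgdh in PD against Normal, and no member is marked in LID + PD98059 against LID + Vehicle, on which Psat1 was selected.

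The counts over the members were read against those over all transcripts. In LID + PD98059 against LID + Vehicle, 0 of 9 members were called at the adjusted threshold by limma (0% of all transcripts), 3 at the unadjusted threshold (4.44%), and 1 had groups that did not overlap (9.16%). Those 3 were Psat1, Atf4 and Chac1, and the count was 1 without LID + Vehicle replicate 1. Psat1 was selected on this comparison, so these counts are a description and no support for a change. The median log2 difference of the 9 was -0.25, against 0.01 over all transcripts, with 2 members above 0 and 7 below.

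In LID + Vehicle against LID, 0 members passed by limma at the adjusted threshold (0% of all transcripts) and 0 at the unadjusted threshold (3.68%), and 1, Trib3, did not overlap (8.01%). The members' median was 0.17, against -0.01 over all transcripts, with 7 above 0 and 2 below. This comparison shares the LID + Vehicle arrays with the one before, so values of LID + Vehicle enter both with opposite sign. In LID + PD98059 against LID, which shares arrays with both, the counts were 0 of 9 at the adjusted threshold by limma (0%), 0 at the unadjusted threshold (4.74%) and 1 without overlap (9.96%). There the members' median was -0.07, against 0.00 over all transcripts.

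In LID against PD, 0 members passed the adjusted threshold by limma (0.00545% of all transcripts), 2 passed at the unadjusted threshold (8.17%), Shmt2 higher and Trib3 lower, and the same 2 did not overlap (15.0%). Without PD replicate 3, 0 were at the unadjusted threshold. In PD against Normal, 0 members passed the adjusted threshold by limma (0%), 1, Phgdh, passed the unadjusted threshold (4.31%) and 1, Atf4, did not overlap (10.5%). Over the 5 groups together, 0 members had an adjusted F p under 0.05 (0.191% of all transcripts) and 2, Shmt2 and Psat1, had an unadjusted one (10.1%), though the F of Psat1 contains the difference it was selected on. The members' medians in LID against PD and in PD against Normal were -0.08 and 0.08, against -0.03 and 0.01 over all transcripts.

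The members did not vary as 1 group. Over the 15 arrays the 36 pairs had a median Pearson r of 0.00, with 19 positive and 17 negative and a range from -0.74 to 0.86. After Benjamini-Hochberg adjustment over the 36 pairs, 3 had an adjusted permutation p under 0.05, namely Atf4 with Ddit3 and Psat1 with each of these.

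**Figure D3:**
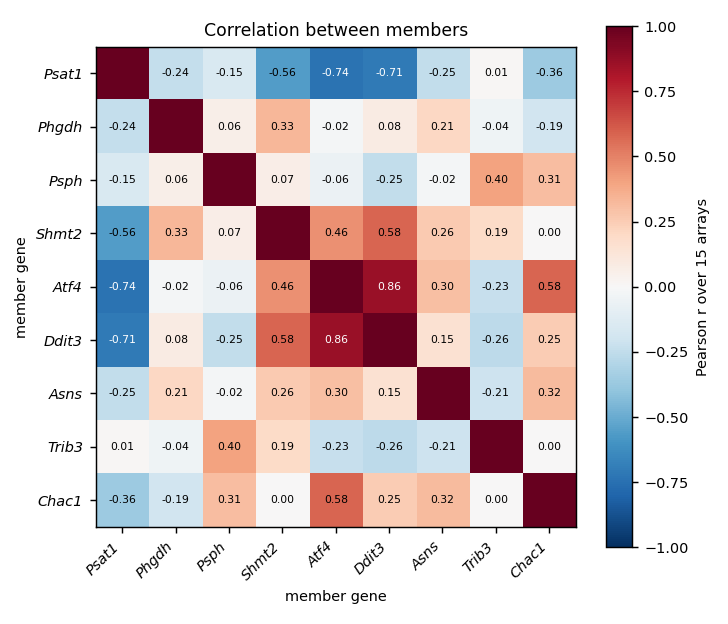
Pearson r between the 9 members over the 15 arrays, with genes on both axes and the colour scale running between -1 and 1. Atf4 and Ddit3 have the highest r, 0.86, while Psat1 has negative r with both.

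Atf4 and Ddit3 varied together, with r = 0.86 (permutation p = 6e-05, adjusted p = 0.00216) and Spearman's rho = 0.79 (permutation p = 0.00076, adjusted p = 0.0274). The r was 0.79 without the 2 arrays farthest from the median of Atf4, and 0.83 with group means removed. Psat1 ran against Atf4, with r = -0.74 (permutation p = 0.00171, adjusted p = 0.0308), but rho was -0.52 (permutation p = 0.051, adjusted p = 0.581). That relation rested in part on a few arrays, as r was -0.45 without the 2 arrays farthest from the median of Psat1 and -0.53 (permutation p = 0.0513) without LID + Vehicle replicate 1. With group means removed it was -0.73. Psat1 and Ddit3 gave r = -0.71 (permutation p = 0.00291, adjusted p = 0.0349) and rho = -0.52 (permutation p = 0.0482, adjusted p = 0.581), with r = -0.58 without the 2 farthest arrays and -0.57 with group means removed. Psat1 was selected on a difference between arrays that are among those correlated here. The p of its pairs are therefore a description and no support for a relation.

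**Figure D4:**
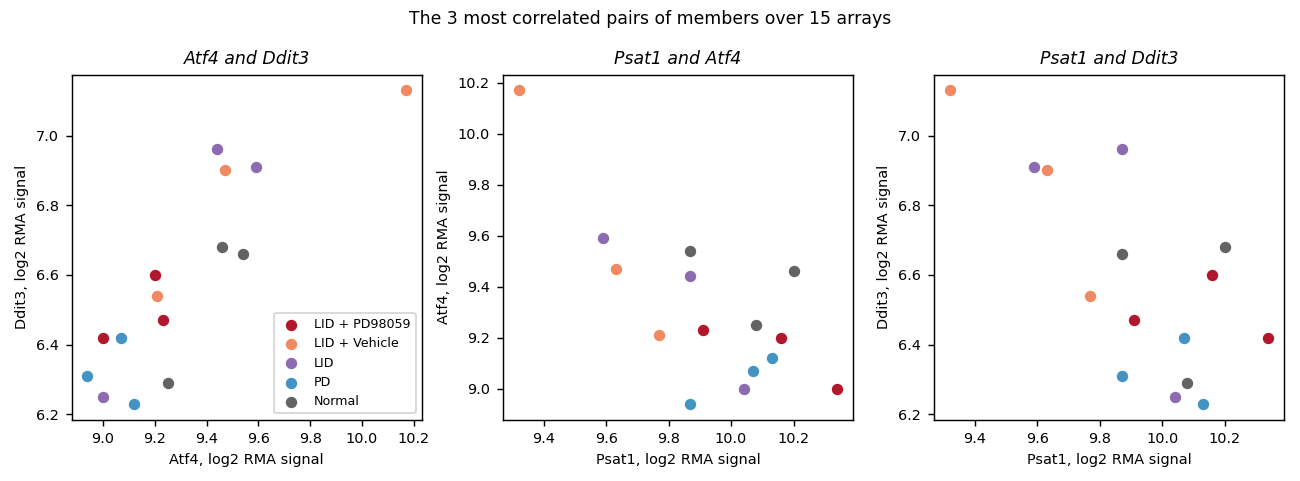
Log2 RMA signal of the 3 most correlated pairs of members, 1 point per array, coloured by group. LID + Vehicle replicate 1 is the point at 10.17 for Atf4 and 9.32 for Psat1, at the end of each cloud.

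The named genes whose level followed Shmt2 most closely over the 15 arrays were Tfg (r = 0.94), Il1rap (r = 0.93) and Serf2 (r = 0.92), out of 10903 genes above the dim level. Il1rap encodes the shared accessory subunit of the interleukin-1 receptor. Those closest to Psat1 were Slc15a2 (r = 0.85), a peptide transporter known from astrocytes and choroid plexus, Fzd2 (r = 0.84), a Wnt receptor, and Igfbp5 (r = 0.82), which encodes a carrier of IGF peptides. They are the highest of many values and are given as a description.

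Other genes of the same pathways were taken from 6 lists, of which 111 of 123 genes had a transcript. None of the 111 passed the adjusted threshold in any of the 5 comparisons by limma. In LID + PD98059 against LID + Vehicle 0 were higher and 10 lower at the unadjusted threshold. In LID + Vehicle against LID 2 were higher and 1 lower, as in LID + PD98059 against LID. In LID against PD 10 were higher and 1 lower, and in PD against Normal 2 were higher and 0 lower. These are 9.01%, 2.70%, 2.70%, 9.91% and 1.80% of the 111, against 4.44%, 3.68%, 4.74%, 8.17% and 4.31% of all transcripts in the same comparisons.

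The branch of the unfolded protein response driven by ATF6 and XBP1 raises chaperones of the endoplasmic reticulum. It held most of the genes at the unadjusted threshold that were lower in LID + PD98059 than in LID + Vehicle. In LID + PD98059 against LID + Vehicle, 6 of its 18 genes were lower at the unadjusted threshold, which 4.44% of all transcripts passed in either direction, 17 of 18 had a log2 difference below 0, and the median was -0.29, against 0.01 over all transcripts. Hsp90b1, the chaperone GRP94, averaged 10.69 ± 0.06 in LID + PD98059 and 11.00 ± 0.19 in LID + Vehicle (SD, n = 3 each), a log2 difference of -0.31 (SE 0.11, limma, adjusted p = 0.966). Dnajb11, a cochaperone, averaged 8.12 ± 0.10 in LID + PD98059 and 8.43 ± 0.22 in LID + Vehicle, a log2 difference of -0.31 (SE 0.11, limma, adjusted p = 0.966). The other 4 at the unadjusted threshold were Manf, Xbp1, Hspa5 and Dnajb9. Without LID + Vehicle replicate 1 the count was 6 and the median -0.29, without LID + Vehicle replicate 2 the count was 0 and the median -0.20, and without LID + PD98059 replicate 3 the count was 2 and the median -0.19.

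In LID + Vehicle against LID all 18 of these genes had a log2 difference above 0, with a median of 0.19. At the unadjusted threshold there were 0 (3.68% of all transcripts), a count that was 8 without LID + Vehicle replicate 3. Against LID, LID + PD98059 had 17 of 18 below 0, with a median of -0.10 and 0 at the unadjusted threshold (4.74% of all transcripts). In LID against PD 4 of 18 were higher at the unadjusted threshold, which 8.17% of all transcripts passed in either direction, with 17 of 18 above 0 and a median of 0.30, against -0.03 over all transcripts. Manf, a secreted protein of stressed endoplasmic reticulum, averaged 8.01 ± 0.09 in LID and 7.53 ± 0.11 in PD, a difference of 0.47 (SE 0.12, limma, adjusted p = 0.354). Hspa5, the chaperone BiP, averaged 11.01 ± 0.12 in LID and 10.53 ± 0.05 in PD, a difference of 0.48 (SE 0.16, limma, adjusted p = 0.479). The other 2 were Pdia4 and Hyou1, and the count ranged from 2 to 9 with 1 of the 6 arrays left out. The share of all transcripts in fits with an array left out is not given here, so such counts are not set against it. In PD against Normal, 16 of the 18 genes were below 0, with 0 at the unadjusted threshold (4.31% of all transcripts). Their median there was -0.13, against 0.01 over all transcripts. The PD arrays enter LID against PD and PD against Normal with opposite sign.

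Aminoacyl-tRNA synthetases, many of them known ATF4 targets, showed a smaller shift. Of the 19 measured, 18 had a log2 difference below 0 in LID + PD98059 against LID + Vehicle, with a median of -0.14 and 2 at the unadjusted threshold (4.44% of all transcripts), Hars1 (-0.34) and Gars1 (-0.36), both with an adjusted p of 0.966 by limma. Without LID + Vehicle replicate 1, however, 11 of 19 were below 0, the median was -0.04 and 0 were at the threshold. In LID against PD 3 of 19 were higher at the unadjusted threshold (8.17% of all transcripts in either direction), namely Rars1 (0.48, adjusted p = 0.415), Kars1 (0.49, adjusted p = 0.536) and Eprs1, by limma.

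Of 14 amino acid transporters, Slc38a2, a carrier of neutral amino acids that is induced by amino acid shortage, averaged 9.36 ± 0.08 in LID + PD98059 and 9.85 ± 0.06 in LID + Vehicle (SD, n = 3 each), a log2 difference of -0.49 (SE 0.17, limma, adjusted p = 0.966). Its mean in LID was 9.86 ± 0.34, a log2 difference of -0.50 for LID + PD98059 against LID (SE 0.17, limma, adjusted p = 0.915). Slc1a4, a carrier of alanine, serine and cysteine, averaged 8.10 ± 0.24 in LID and 7.54 ± 0.14 in PD, a difference of 0.56 (SE 0.13, limma, adjusted p = 0.313). Slc6a9, the glycine transporter GlyT1, averaged 9.97 ± 0.13 in PD and 9.29 ± 0.14 in Normal, a difference of 0.67 (SE 0.18, limma, adjusted p = 0.809). Slc36a4 differed by -0.28 between LID + Vehicle and LID (limma, adjusted p = 1).

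Few genes of the remaining 3 lists reached the unadjusted threshold. Of 27 other ATF4 and CHOP targets, Vegfa, the vascular growth factor, differed by -0.53 in LID + PD98059 against LID + Vehicle (SE 0.22, limma, adjusted p = 0.966). Ddit4, an inhibitor of mTORC1, and Ppp1r15a, the phosphatase subunit that reverses eIF2 phosphorylation, were 0.43 and 0.39 higher in LID + Vehicle than in LID (limma, adjusted p = 1 for both). Of 18 enzymes of serine, glycine and one-carbon metabolism with a transcript, Tyms, thymidylate synthase, was 0.53 higher in LID than in PD (limma, adjusted p = 0.536) and Ahcy, which hydrolyses S-adenosylhomocysteine, 0.40 higher in PD than in Normal (limma, adjusted p = 1). Sds and Dao had means of 4.52 and 4.34 over the 15 arrays, under the dim level, and were 0.31 and 0.27 higher in LID + PD98059 than in LID. Sds was also lower in LID than in PD, by a log2 difference of -0.31. Of 15 eIF2 kinases and regulators, 1, Dnajc3, an inhibitor of the kinase PERK, was 0.40 higher in LID than in PD (limma, adjusted p = 0.496). The median log2 difference of these 3 lists lay between -0.07 and 0.04 in all 5 comparisons.

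**Figure D5:**
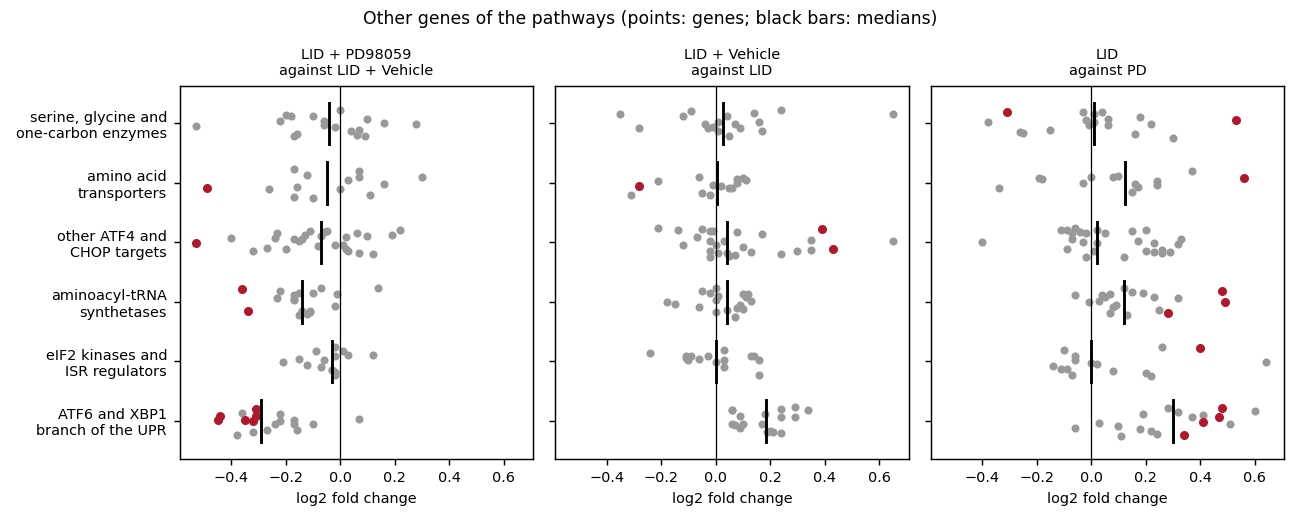
Log2 fold changes (x axis) of the 111 other pathway genes by list (y axis) in 3 comparisons, 1 point per gene, red at the unadjusted threshold and fold, with a black bar at the median of the list. The unfolded protein response genes of the ATF6 and XBP1 branch lie to the left in LID + PD98059 against LID + Vehicle (median -0.29) and to the right in LID against PD (median 0.30). LID + PD98059 against LID and PD against Normal, where their medians were -0.10 and -0.13, are not drawn.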

How the data were processed

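The values are log2 signals per transcript that the authors deposited after RMA (background adjustment and normalization between arrays) in Affymetrix Expression Console. Its version is not given in the sources used here. Whether exon level or probe median summaries were deposited is not stated. RMA shares information across arrays and compresses low signals, so differences of dim transcripts are understated. Values were used as deposited, with 0 missing. Having only 3 arrays per group limits the precision.

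The groups were fitted by lmFit with eBayes in limma 3.58.1 (R 4.3.3), two-sided, with 1 mean per group over all 15 arrays and Benjamini-Hochberg adjustment over 36685 transcripts. The methods name an adjusted p and the results text an unadjusted one, so both thresholds are given. Exact permutation tests used every split of the arrays and cannot go below p = 0.1 for 3 against 3. Correlations used 100000 permutations, made over all arrays without regard to group. Same-numbered arrays of different groups did not clearly deviate together (r from -0.411 to 0.235), and the main fit used no pairing by replicate number. This check cannot show whether same-numbered arrays shared a batch.

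Symbols came from the platform's probe table: 18511 transcripts had 1, 575 several and 17599 none. Promoters came from RefSeq (GRCr8), matched by gene for all 10 genes, and motif searches and plots ran in Python 3.11.15 with matplotlib 3.10.9. The members and lists were chosen with earlier results of these data known. All members are described. Of each pathway list, up to 2 genes per comparison with the smallest unadjusted p past the unadjusted threshold carry values, and others at that threshold in a list are named only. The genes most like a member are the 3 of highest r for each member with an unadjusted F p under 0.05, and the pairs are the 3 of highest absolute r. The fit was checked before use on simulated shifts of 1 and 2 log2 units. These are larger than the members' differences, so the check does not bear on differences of that size. Marker lists for oligodendrocytes and endothelium gave array means of 9.83 to 10.59 and 7.27 to 7.85. Scan batches were not given, so batch effects could not be checked.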

Additional observations from a re-analysis of the deposited data

How the results depend on the processing

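Counts of members at the unadjusted threshold depended on single arrays, and no direction of a called member reversed. In LID + PD98059 against LID + Vehicle the count was 3, and 1 in a fit of only the 2 groups. Without 1 array it ranged from 1 to 4. In LID + Vehicle against LID it was 0, and 0 to 2 without 1 array. In LID + PD98059 against LID it was 0, 2 with array weights, and 0 to 3 without 1 array. In LID against PD it was 2, and 1 with dim transcripts left out, 1 after a second quantile normalization, 1 in a fit of only the 2 groups and 0 to 3 without 1 array. In PD against Normal it was 1, 0 with dim transcripts left out, and 0 to 2 without 1 array. Over the 5 groups together 2 members had an unadjusted F p under 0.05, and 1 to 4 without 1 array. In the L-DOPA groups against the untreated groups, added after the values were seen, 1 was called, 2 with array weights and 1 to 2 without 1 array. No count at the adjusted threshold changed.

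With the replicate number as a block, 2 members were at the unadjusted threshold in LID + PD98059 against LID + Vehicle, and the counts of the other comparisons were the same as without it. Nothing is read from the member counts of LID + PD98059 against LID + Vehicle, on which Psat1 was selected. The log2 difference of Chac1 there was -0.25 with array weights. Of 200 counts over the members 173 stayed within 1.5 times, and of 186 single values 154 kept their side of the threshold, 22 lost it and 10 gained it. Of 360 counts over the pathway lists 99 moved by more than 1.5 times. The mean over all transcripts of a gene was not run, as each member had 1. With 3 rats per group and adjusted p near 1, small changes were not detectable here.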
